A study of Mus musculus with 2 samples.

Results

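The genes of the mitochondrial respiratory chain were followed in lung endothelial cells (ECs) of mice 6 h after an injection of melanoma cells. Genes were chosen by symbol as the numbered or lettered subunits of complexes I to V (the Nduf, Sdh, Uqcr, Cox5 to Cox8 and Atp5 symbols) and the protein-coding genes of the mitochondrial genome. They needed at least 50 unique molecular identifiers (UMIs, each marking 1 captured RNA molecule) over the cells kept. Of 96 matching rows, Cox7b2 and Cox8c fell under this minimum. The remaining 94 genes, among 32285 rows in all and 15382 with as many UMIs, comprised 81 nuclear genes and 13 mitochondrial genes. The rule used symbols and UMI totals and not the difference between the groups, but it was written with earlier results of these data known.

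The study examined how the lung vasculature reacts when melanoma cells arrive from the blood. Wild-type male C57BL/6 mice received 400000 B16-F10 cells, a mouse skin melanoma line marked with a green tracker dye, in 100 µl of phosphate-buffered saline (PBS) through the tail vein, and control mice received PBS. Lungs of both groups were digested after 6 h, and cells positive for the endothelial protein Pecam1 and negative for the leukocyte protein Ptprc were sorted, with dyed melanoma cells added in the B16-F10 group. Each group is 1 single-cell library of pooled mice, 2 per treatment by the labels and 3 by the methods for the experiment with this dose, so the number pooled here is uncertain, and the libraries belong to 1 of several experiments of the study. Every comparison therefore sets 1 library against 1 library. No test was possible, and the 95% intervals below cover counting error only.

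Sequencing gave 85794655 UMIs in control and 104978816 in B16-F10. Cells were kept if they had 1000 to 5000 genes and less than 20% of UMIs from mitochondrial genes. Without doublets 7830 and 7767 cells remained, with medians of 7500 and 8544 UMIs. The mitochondrial limit removed 6 of 8400 control cells (0.0714%, exact interval 0.0262 to 0.155) and 20 of 8341 B16-F10 cells (0.240%, 0.147 to 0.370). The libraries shared 19 cell barcodes. Classes were named "X-like" from marker genes. General capillary (gCap-like) ECs numbered 3733 in control and 3473 in B16-F10, aerocyte capillary (aCap-like) ECs 1451 and 970, artery-like ECs 189 and 138, vein-like ECs 298 and 287, and lymphatic (LEC-like) ECs 57 and 51. The names rest on these markers, so the markers cannot test the names. Detection did not separate the capillary classes: all 8 gCap and all 8 aCap markers were detected in both classes of both libraries. Their sums differed. In control the gCap and aCap markers summed to 209685 and 6283 UMIs in gCap-like cells, and to 5957 and 96805 in aCap-like cells. In B16-F10 the sums were 211589 and 6535 in gCap-like cells, and 5285 and 65856 in aCap-like cells.

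The respiratory chain sits in the inner mitochondrial membrane. Complexes I and II take electrons from fuel breakdown, complexes III and IV pass them through cytochrome c to oxygen, and the proton gradient that complexes I, III and IV build drives ATP synthase, complex V. Most subunits are encoded in the nucleus, made in the cytosol and imported, while a small core of complexes I, III, IV and V is encoded by mitochondrial DNA, so assembly draws on both genomes. Complex II is wholly nuclear. ECs are known to derive much of their ATP from glycolysis, while respiration serves their growth, redox balance and signalling. Here the nuclear and mitochondrial genes numbered 36 and 7 in complex I, 4 and 0 in complex II, 8 and 1 in complex III, 16 and 3 in complex IV, and 17 and 2 in complex V. Ndufa4 and its paralogue Ndufa4l2, named after complex I, were counted with complex IV, where the Ndufa4 protein is found.

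Nuclear respiratory chain genes are known to share promoter elements, read here in the 300 bases around the RefSeq start (250 before it and 50 after it, build GRCm38.p6) of the 68 nuclear genes with a RefSeq entry. Letters were searched on both strands. CGCATGCG, the palindromic core of the sites bound by NRF1, occurred in 9 of the 68 genes (13.2%) and in 2.07% of 27025 genes. CCGGAAG, an ETS-factor core, occurred in 17 (25%) against 9.93%, and AAGATGGC, a YY1 core, in 10 (14.7%) against 3.19%. CACGTG, the E-box bound by Myc and its partners, occurred in 6 (8.82%) against 8.09%. The ETS and YY1 letters can share 3 bases, which they did in 0 of the 68 genes. At least 1 of these elements was present in 34 genes. Upstream stretches are shown for genes of the results below: Atp5g1, with a large difference between the libraries, Cox6a1 and Atp5l, which hold more than 1 kind of element, and Ndufc2 and Cox7a2l, with the most negative ratios. They lie at chr11:96075671-96075881 (minus strand), chr5:115348982-115349129 (minus), chr9:44920752-44920992 (minus), chr7:97399753-97400002 (plus) and chr17:83514334-83514583 (minus), read 5′ to 3′ along the gene, and were limited to bases outside annotated exons. Capitals mark the searched elements: CGCATGCG in Cox6a1, 161 bases before the start, and in Atp5l CGCATGCG, 241 bases before the start, the reverse complement of CCGGAAG, 212 bases before it, and CACGTG, 147 bases before it.
Atp5g1: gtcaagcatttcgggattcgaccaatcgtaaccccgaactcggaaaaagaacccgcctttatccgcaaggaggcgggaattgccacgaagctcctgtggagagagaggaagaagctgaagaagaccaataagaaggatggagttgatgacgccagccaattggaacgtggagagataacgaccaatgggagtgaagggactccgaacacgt
Cox6a1: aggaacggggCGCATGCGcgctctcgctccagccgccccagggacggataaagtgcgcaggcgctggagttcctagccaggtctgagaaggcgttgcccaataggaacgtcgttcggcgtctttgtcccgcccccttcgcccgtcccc
Atp5l: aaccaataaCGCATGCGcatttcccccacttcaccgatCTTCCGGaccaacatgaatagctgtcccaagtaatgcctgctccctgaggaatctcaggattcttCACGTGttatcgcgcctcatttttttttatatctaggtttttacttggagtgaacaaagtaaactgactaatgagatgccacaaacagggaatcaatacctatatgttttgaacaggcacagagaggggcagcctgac
Ndufc2: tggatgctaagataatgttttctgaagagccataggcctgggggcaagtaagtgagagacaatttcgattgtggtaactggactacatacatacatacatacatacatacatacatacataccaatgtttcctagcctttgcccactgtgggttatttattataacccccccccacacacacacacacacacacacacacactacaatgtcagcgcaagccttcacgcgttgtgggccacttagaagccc
Cox7a2l: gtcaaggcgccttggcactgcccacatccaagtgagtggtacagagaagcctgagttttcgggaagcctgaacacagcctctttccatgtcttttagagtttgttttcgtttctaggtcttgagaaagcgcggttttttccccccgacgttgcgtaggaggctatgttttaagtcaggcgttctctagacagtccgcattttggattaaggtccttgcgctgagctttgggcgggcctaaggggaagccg

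The windows of Ndufc2 and Cox7a2l held none of the letters, which says only that these letters were not in them. The element of Atp5g1, another of Cox6a1 and another ETS element of Atp5l lie at least partly outside the stretches shown. Among genes matched to a promoter, the median log2 ratio in gCap-like cells was 0.26 with and 0.21 without the NRF1 letters, 0.22 and 0.21 for ETS, 0.20 and 0.22 for YY1, and 0.24 and 0.21 for the E-box.

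Respiratory chain RNA took a larger share of the transcriptome 6 h after B16-F10 in most vessel types, and genes of both genomes were higher. In gCap-like cells the nuclear genes summed to 1.23% of all UMIs in control and 1.43% in B16-F10, a log2 ratio of 0.21 (0.20 to 0.22). The mitochondrial genes summed to 2.18% and 2.54%, a log2 ratio of 0.22 (0.21 to 0.22). In aCap-like cells the nuclear share was 1.07% and 1.36% (log2 0.35, 0.34 to 0.36) and the mitochondrial share 1.73% and 2.11% (0.29, 0.28 to 0.29). Both blood capillary classes were therefore higher in B16-F10 for both genomes.

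Artery-like cells had nuclear shares of 1.03% and 1.35% (log2 0.38, 0.35 to 0.42) and mitochondrial shares of 2.30% and 2.68% (0.23, 0.20 to 0.25). Vein-like cells had the highest nuclear share in both libraries, 1.46% and 1.55% (0.09, 0.08 to 0.11), with mitochondrial shares of 2.49% and 2.84% (0.19, 0.18 to 0.21). In LEC-like cells the nuclear share was 1.32% and 1.33% (0.01, −0.04 to 0.06) and the mitochondrial share 1.77% and 2.15% (0.27, 0.23 to 0.32). The ratio of mitochondrial to nuclear UMIs was nearly the same in both libraries over gCap-like cells, 1.77 and 1.78, and over all named ECs, 1.73 in each. It was lower in B16-F10 in aCap-like cells (1.62 and 1.55) and artery-like cells (2.22 and 1.99), and higher in vein-like cells (1.71 and 1.83) and LEC-like cells (1.35 and 1.62). These are ratios of UMIs, not per transcript length.

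**Figure D1:**
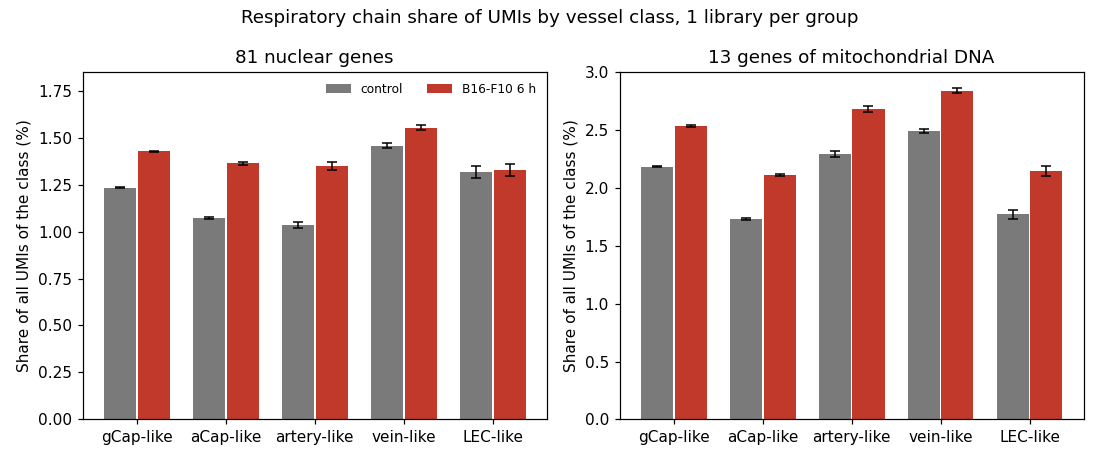
Share of all UMIs (%) taken by the 81 nuclear and the 13 mitochondrial respiratory chain genes in 5 vessel classes, control and B16-F10 6 h, 1 library each, with 95% counting intervals. The nuclear share was higher in B16-F10 in every class but LEC-like, where it was 1.32% and 1.33%, and the mitochondrial share was higher in all 5.

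The classes pooled clusters that the libraries filled unequally, so the same sums were read cluster by cluster. Within the 14 EC clusters, the counting interval of the nuclear ratio lay above 0 in 12 and that of the mitochondrial ratio in 14. The nuclear log2 ratios ran from −0.05 to 0.71 and the mitochondrial from 0.06 to 0.64. In the largest gCap-like cluster (1421 control and 1295 B16-F10 cells) they were 0.18 and 0.24, and in the next (1409 and 586 cells) 0.20 and 0.30. A gCap-like cluster of 69 control and 1035 B16-F10 cells, led by Lalba, Tmem252 and Adamts9, had 0.20 for the nuclear and 0.08 for the mitochondrial genes. An EC cluster of 1266 and 1165 cells carried all 8 gCap markers but kept no vessel name, because Efnb2, an artery marker, was among its leading genes, and its ratios were 0.29 and 0.29. The exceptions on the nuclear side were the LEC-like cluster and an unnamed EC cluster of 8 control and 302 B16-F10 cells, led by Csf2 and Sox9, with −0.05 and a mitochondrial ratio of 0.24.

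**Figure D2:**
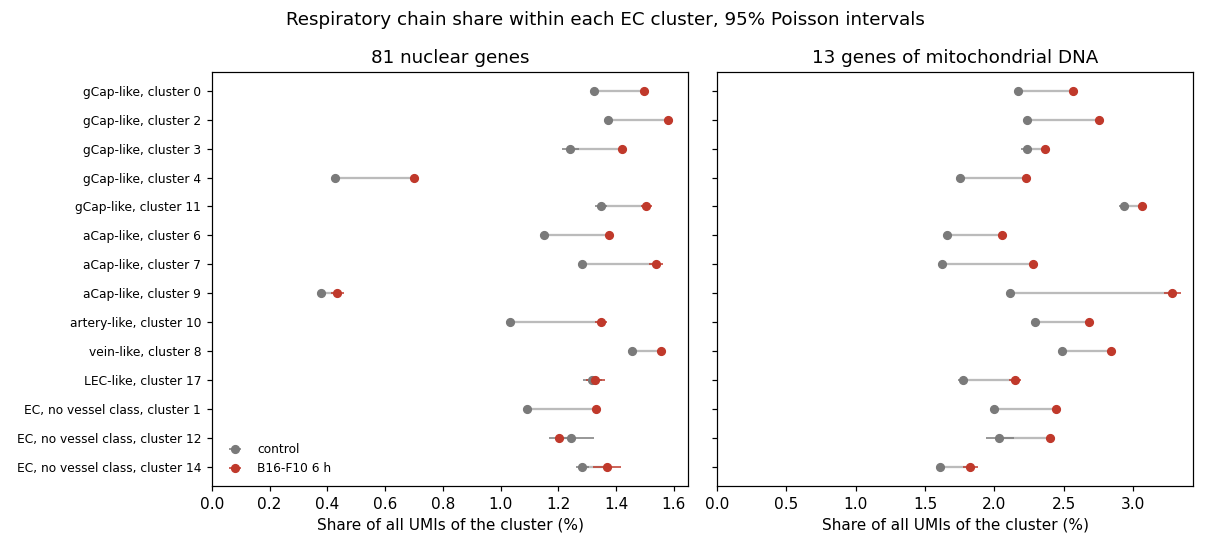
Share of all UMIs (%) taken by nuclear and mitochondrial respiratory chain genes in each of 14 EC clusters, control and B16-F10 6 h, with 95% counting intervals. The mitochondrial share was higher in B16-F10 in all 14, with log2 ratios from 0.06 to 0.64. The nuclear log2 ratios ran from −0.05 to 0.71.

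Clusters with few UMIs touched the class values. A gCap-like cluster with a median of 3954 UMIs per cell in control held 18.6% of control and 11.1% of B16-F10 gCap-like cells, and its nuclear shares were 0.427% and 0.699%. An aCap-like cluster with a median of 4588 UMIs in control held 35.2% of control but 6.91% of B16-F10 aCap-like cells, with nuclear shares of 0.379% and 0.435% and mitochondrial shares of 2.11% and 3.28%. The other aCap-like cells also sat in different clusters, 765 control and 99 B16-F10 cells in one and 175 and 804 in the other, where the nuclear ratio was 0.26 in each. In these low-UMI clusters RNA of the cytosolic ribosomal protein genes was low too. It took 1.65% and 3.18% of UMIs in the gCap-like and 1.07% and 1.6% in the aCap-like cluster. Without them the nuclear log2 ratio was 0.14 (0.14 to 0.15) in gCap-like cells, 1.35% against 1.49%, and 0.15 (0.14 to 0.16) in aCap-like cells, 1.26% against 1.39%. The mitochondrial ratios were then 0.19 and 0.35.

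The same pattern was seen cell by cell when each cell was thinned to 2000 UMIs, which left out 58 control and 30 B16-F10 gCap-like cells. The median gCap-like cell held 24 nuclear respiratory chain UMIs in control (quartiles 17 and 31) and 28 in B16-F10 (22 and 35), and 41 and 48 mitochondrial UMIs. The median aCap-like cell held 19 (8 and 27) and 27 (22 and 33) nuclear UMIs, and 34 and 41 mitochondrial UMIs. Control aCap-like cells fell into a high and a low group on the nuclear count: 553 of 1434 (38.6%, 36 to 41.1) held under 14 of 2000, against 83 of 965 in B16-F10 (8.60%, 6.91 to 10.6). The limit of 14 was set after the distribution had been seen, and 127 and 42 cells lay at 12 to 15. The low-UMI aCap-like cluster described above held 35.2% of control and 6.91% of B16-F10 aCap-like cells. Its overlap with this low group was not counted. In gCap-like cells 18.4% and 8.16% were under it, in artery-like cells 24.5% and 11.8%, in vein-like cells 3.69% and 3.14% and in LEC-like cells 12.3% and 13.7%. Without thinning, the median nuclear share per aCap-like cell was 0.963% and 1.37%. Over cells, nuclear and mitochondrial counts went together weakly in gCap-like cells (Spearman 0.25 and 0.23 over 3675 and 3443 cells of 1 library each) while aCap-like cells had negative coefficients (−0.24 and −0.08 over 1434 and 965). These coefficients share each cell's fixed total, which links the counts by construction.

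**Figure D3:**
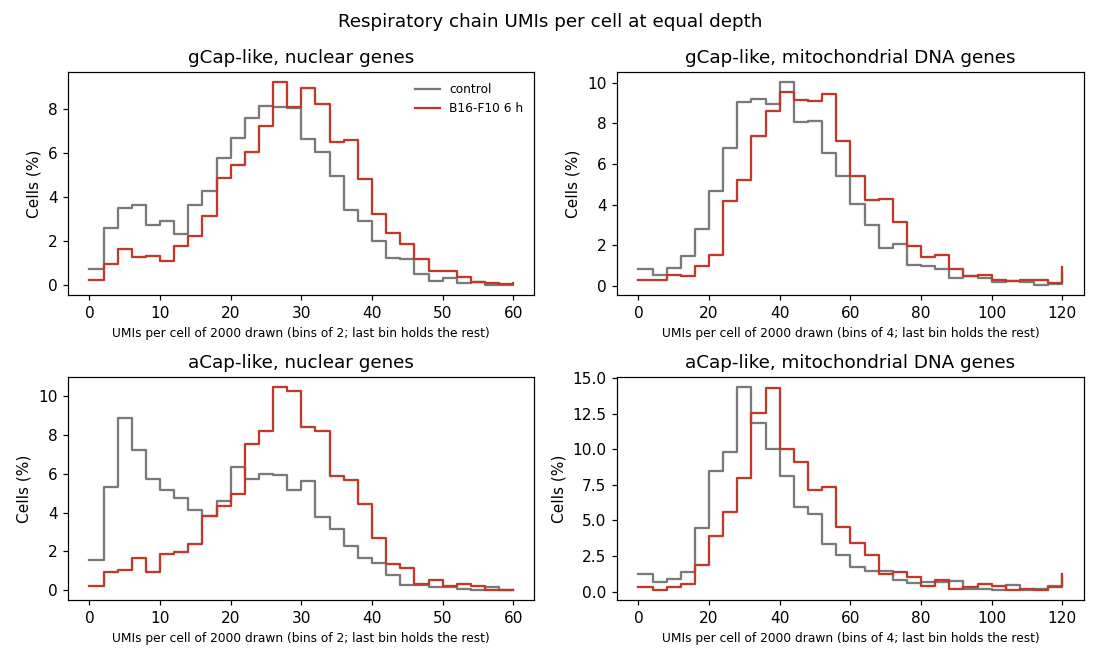
Distribution over gCap-like and aCap-like cells of nuclear and mitochondrial respiratory chain UMIs in cells thinned to 2000 UMIs, by library. Control aCap-like cells show a second group with few nuclear UMIs (38.6% under 14 of 2000), which held 8.60% of B16-F10 aCap-like cells. The low-UMI aCap-like cluster held 35.2% and 6.91% of these cells.

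By complex, the gCap-like difference was spread over the chain. The nuclear log2 ratios were 0.18 for complex I (NADH dehydrogenase), 0.16 for complex II (succinate dehydrogenase), 0.19 for complex III (cytochrome bc1), 0.21 for complex IV (cytochrome c oxidase) and 0.26 for complex V (ATP synthase). The mitochondrial ratios were 0.16, 0.14, 0.26 and 0.25 for complexes I, III, IV and V. In aCap-like cells the nuclear ratios were 0.30, 0.17, 0.39, 0.37 and 0.39 in the same order, and in artery-like cells 0.41, 0.18, 0.34, 0.34 and 0.43. Without the low-UMI clusters the gCap-like nuclear ratios were 0.11, 0.12, 0.12, 0.14 and 0.19 and the aCap-like 0.11, 0.03, 0.18, 0.16 and 0.18. In vein-like cells the nuclear ratios lay between 0.05 (complex III) and 0.14 (complex V), and in LEC-like cells between −0.10 (complex II) and 0.10 (complex V).

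RNAs outside the chain were measured on the same scale. Cytosolic ribosomal genes had log2 ratios of 0.19 in gCap-like, 0.48 in aCap-like, 0.09 in artery-like, 0.03 in vein-like and −0.23 in LEC-like cells. Mitochondrial ribosomal genes had 0.25, 0.34, 0.40, 0.11 and 0.13, and the nuclear RNA Malat1 had −0.15, −0.03, −0.28, −0.03 and 0.15. Shares are relative, and more RNA of one kind cannot be told apart from less of another.

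For single genes a difference was counted when the log2 ratio was at least 0.32 in either direction, the counting interval left out 0 and both sums together held at least 50 UMIs. In gCap-like cells 78 of the 81 nuclear genes were measured in this sense. Of these, 14 were higher and 0 lower, while over all 12843 measured genes 15.1% were higher and 20.4% lower. The share of nuclear genes counted as higher was thus near that of all genes. Intervals lay wholly above 0 for 65 of 78 and wholly below for 3, against 27.6% and 34.5% of all genes, and the median log2 ratio was 0.21 against −0.05. Intervals narrow with level: 69 of the 78 were in the highest of 4 equal bins of genes by level, where 59 of them lay above 0 and 3 below, against 43.4% and 41.1% of all genes of that bin. Without the low-UMI cluster 5 were higher and 0 lower (14.2% and 18.7% of all genes), namely Ndufa8, Ndufa12, Uqcrq, Ndufa4l2 and Atp5g1, with a median of 0.15 against −0.04. Within the 2 largest gCap-like clusters, 10 of 77 were higher and 1 lower (12.1% and 12.7% of all genes) and 13 and 0 (8.41% and 11.7%). At a lower size of 1.1-fold 58 were higher and 2 lower over the class (24.9% and 32.2% of all genes), and at 1.5-fold 1 and 0 (7.85% and 9.58%). After centring on the median of all genes 24 were higher and 0 lower (17.7% and 17.2%), and in cells thinned to 2000 UMIs 22 and 0 (15.1% and 18.1%).

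**Figure D4:**
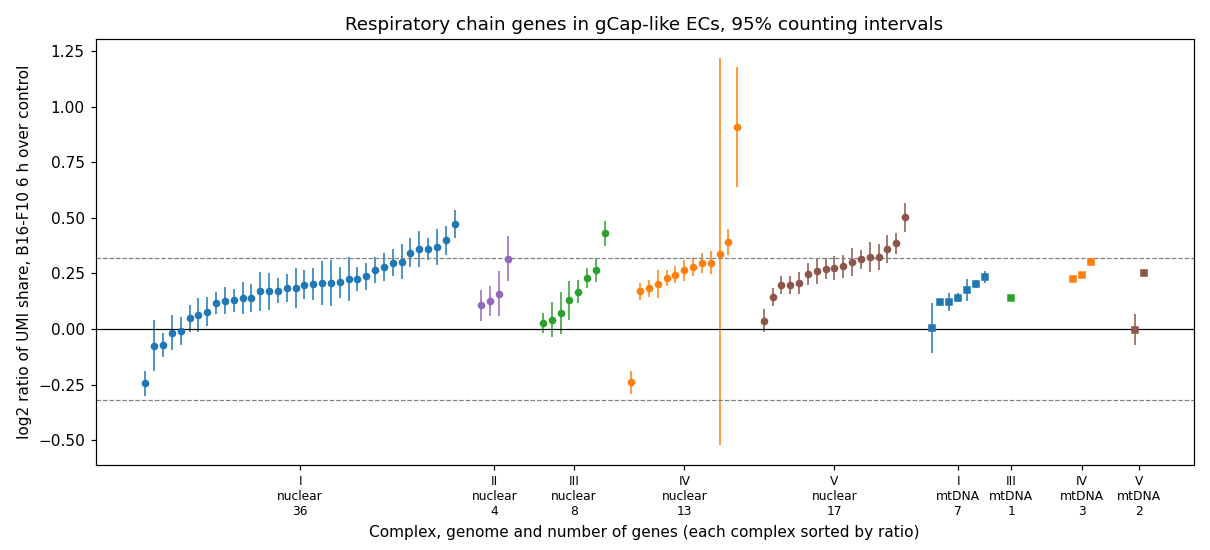
log2 ratio of the UMI share, B16-F10 6 h over control, of each respiratory chain gene in gCap-like cells, grouped by complex and genome and sorted by ratio, with 95% counting intervals, and dashed lines at 0.32 above and below 0. Of the 78 nuclear genes shown 14 were counted as higher and 0 as lower, and Ndufc2 and Cox7a2l had the lowest ratios, −0.24 each.

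Among the 36 nuclear complex I genes of gCap-like cells, 6 were higher and 0 lower, against 15.1% and 20.4% of all genes. Ndufa8 (chr2:36036326-36049406, minus strand), an accessory subunit with CHCH domains, held 124 counts per 1000000 UMIs (CPM) from 3458 UMIs in control and 172 CPM from 5247 UMIs in B16-F10, a log2 ratio of 0.47 (0.41 to 0.53). Ndufa12 (chr10:94198720-94221443, plus strand), an accessory subunit of the arm that binds NADH, had 115 and 152 CPM (0.40, 0.33 to 0.46). Ndufb1-ps had 203 and 261 CPM (0.36). It overlaps Cpsf2 on the other strand and is annotated as a long non-coding RNA. Ndufa7, an accessory subunit, had 201 and 218 CPM (0.12, 0.07 to 0.17), and Ndufb6 (0.37), Ndufs6 (0.36) and Ndufa11 (0.34) completed the 6.

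At the other end stood Ndufc2, an accessory subunit of the membrane arm, whose promoter letters were given above (gene at chr7:97400003-97407802, plus strand). Its level was 200 CPM in control and 169 CPM in B16-F10 gCap-like cells, a log2 ratio of −0.24 (−0.30 to −0.19). The ratio was −0.30 without the low-UMI cluster, −0.19 in vein-like, 0.19 in aCap-like (0.03, −0.07 to 0.13, without its low-UMI cluster) and 0.04 in LEC-like cells. Ndufa6, an accessory subunit of the LYR family, had 198 and 188 CPM (−0.07, −0.12 to −0.02). The core iron-sulfur subunit Ndufs1 had 44.2 and 41.9 CPM (−0.07, −0.19 to 0.04), and the accessory subunits Ndufv3 (−0.02) and Ndufs4 (−0.01) had intervals across 0. These genes were named for their low ratios in this class, and none of them passed 0.32 in it.

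All 4 complex II genes had intervals above 0, against 27.6% of all genes. In bins 3 and 4 of 4 by rising level this share was 29.1% and 43.4%. Of the complex II genes 0 passed 0.32, against 15.1% of all genes. Sdha, the flavoprotein that oxidises succinate, had 112 and 120 CPM (0.11, 0.04 to 0.18), Sdhb, the iron-sulfur subunit, had 116 and 127 CPM (0.13, 0.06 to 0.19), and the membrane anchors Sdhd and Sdhc had 0.16 and 0.32. In complex III 1 of 8 genes was higher, against 15.1% of all genes. It was Uqcrq (chr11:53427922-53430831, minus strand), a small subunit, with 154 and 208 CPM (0.43, 0.37 to 0.49). Uqcrb, which contributes to ubiquinone binding, had 250 and 293 CPM (0.23, 0.18 to 0.28). Uqcrh, the hinge protein, had 268 and 273 CPM (0.03, −0.02 to 0.07), and the core protein Uqcrc2 had 0.04.

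Complex IV uses tissue-specific isoforms for several subunits, and gCap-like cells expressed mainly the forms known from liver. The counts were 6367 and 8363 UMIs for Cox6a1 (log2 0.26, 0.22 to 0.31) against 4 and 6 for the heart form Cox6a2. They were 6875 and 9234 for Cox6b1 (0.30, 0.25 to 0.34) against 7 and 15 for the testis form Cox6b2, and 10745 and 13790 for Cox8a (0.23, 0.19 to 0.27) against 0 and 5 for the heart form Cox8b. Cox7a2 had 8312 and 11043 UMIs (0.28, 0.24 to 0.32), and the heart form Cox7a1 had 21 and 29 (0.34, −0.52 to 1.22). The ubiquitous forms carried nearly all UMIs of these sets in both libraries, on a scale that is not per transcript length.

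Cox7a2l went the other way (chr17:83501918-83517330, minus strand). It had 226 and 192 CPM, a log2 ratio of −0.24 (−0.29 to −0.19), and −0.32 without the low-UMI cluster. Its ratio was −0.16 in vein-like, −0.62 in LEC-like (91 and 61 UMIs), −0.01 in artery-like and 0.26 in aCap-like cells, where it was 0.05 (−0.06 to 0.16) without the low-UMI cluster. Of the other complex IV genes, Cox5a, a subunit on the matrix side, was higher, with 149 and 195 CPM (0.39, 0.34 to 0.45), and Cox7c had 394 and 443 CPM (0.17, 0.13 to 0.21).

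Ndufa4 and Ndufa4l2 encode alternative complex IV subunits, of which Ndufa4l2 is a target of the hypoxia factor HIF1. Ndufa4 had 368 and 418 CPM (0.18, 0.15 to 0.22). Ndufa4l2 (chr10:127514967-127517154, plus strand, overlapping Shmt2 on the other strand) had 169 and 347 UMIs, or 6.07 and 11.4 CPM, a log2 ratio of 0.91 (0.64 to 1.18), the largest of the measured nuclear genes in gCap-like cells. Cox4i2, the hypoxia-responsive form of Cox4i1 and not among the 94 genes, had 353 and 739 UMIs (0.94), and Cox4i1 had 406 and 468 CPM (0.20). Both Ndufa4l2 and Cox4i2 are abundant in mural cells, and the small cluster with mural markers held 572 and 743 CPM of Ndufa4l2 and 1743 and 2126 CPM of Cox4i2 in 19 and 26 cells. The 8 mural markers summed to 47.5 and 78.1 CPM in gCap-like cells, with 0 of 8 undetected. With cells that carried a UMI of a platelet, mural, myeloid or pigment marker left out, the Ndufa4l2 ratio was 0.92.

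In complex V 5 of 17 nuclear genes were higher and 0 lower, against 15.1% and 20.4% of all genes. Atp5g1 (chr11:96068852-96075670, minus strand) had 117 CPM from 3270 UMIs and 166 CPM from 5069 UMIs, a log2 ratio of 0.50 (0.44 to 0.57). It is 1 of 3 genes that encode the same mature c-ring protein, and Atp5g2, with 245 and 296 CPM (0.27, 0.23 to 0.32), and Atp5g3, with 109 and 136 CPM (0.32, 0.26 to 0.39), were higher by less. Atp5e, the epsilon subunit of the rotor, had 223 and 291 CPM (0.39, 0.34 to 0.43). The peripheral stalk subunit Atp5h had 326 and 374 CPM (0.20), and Atp5l, a membrane subunit, had 307 and 340 CPM (0.14). The gamma subunit gene Atp5c1 had 190 and 195 CPM (0.04, −0.02 to 0.09). Many of these genes have processed pseudogenes with near-identical sequence, so counts at short, abundant genes such as Atp5e and Cox7c are uncertain to an unknown degree.

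The 13 mitochondrial genes were measured in all 5 classes. In gCap-like cells 0 of 13 passed a log2 ratio of 0.32, against 15.1% of all genes. Intervals of 11 lay above 0, against 27.6% of all genes and 43.4% of those in the highest of 4 bins by level. The log2 ratios ran from 0.00 to 0.30. The highest were the complex IV catalytic subunits mt-Co1 (75974 and 102444 UMIs, 0.30, 0.29 to 0.32), mt-Co3 (90732 and 117648, 0.25) and mt-Co2 (83014 and 106262, 0.23), and the proton channel subunit mt-Atp6 of complex V (122846 and 159965, 0.25, 0.24 to 0.26). Complex I subunits followed, with mt-Nd3 at 0.23, mt-Nd2 at 0.20, mt-Nd4l at 0.18, mt-Nd1 at 0.14, and mt-Nd4 and mt-Nd5 at 0.12 each. The cytochrome b gene mt-Cytb of complex III had 69355 and 83525 UMIs (0.14, 0.12 to 0.15).

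The ratios of mt-Nd6 and mt-Atp8 stood at 0 within counting error in gCap-like cells. The gene mt-Nd6 (chrM:13552-14070), the only one of the 13 on the minus strand, had 44.8 and 44.9 CPM (0.00, −0.11 to 0.12). The gene mt-Atp8 (chrM:7766-7969), a small complex V subunit, had 112 and 112 CPM (−0.00, −0.07 to 0.07). It overlaps mt-Atp6 (chrM:7927-8607) on the same strand and is read from the same bicistronic RNA, so end-based counts of the pair cannot be separated cleanly. Likewise mt-Nd4l (chrM:9877-10173) overlaps mt-Nd4 (chrM:10167-11544), and mt-Nd6 overlaps mt-Nd5 (chrM:11742-13565) on the other strand.

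In the other classes mt-Co1 had log2 ratios of 0.46 in aCap-like (1852 and 2554 CPM), 0.31 in LEC-like, 0.22 in vein-like and 0.19 in artery-like cells. The only aCap-like gene of the 13 past 0.32 was mt-Co1, and without the low-UMI cluster 4 of 13 passed, with a median of 0.28. In LEC-like cells 3 of 13 passed, where mt-Nd1 had 496 and 737 UMIs (0.53, 0.37 to 0.70), mt-Co3 0.39 and mt-Co2 0.36. In artery-like cells 1 passed, mt-Nd4l with 266 and 307 UMIs (0.37, 0.13 to 0.61), and in vein-like cells 0 passed. The mitochondrial medians were 0.23 in aCap-like, 0.19 in artery-like, 0.19 in vein-like and 0.31 in LEC-like cells.

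**Figure D5:**
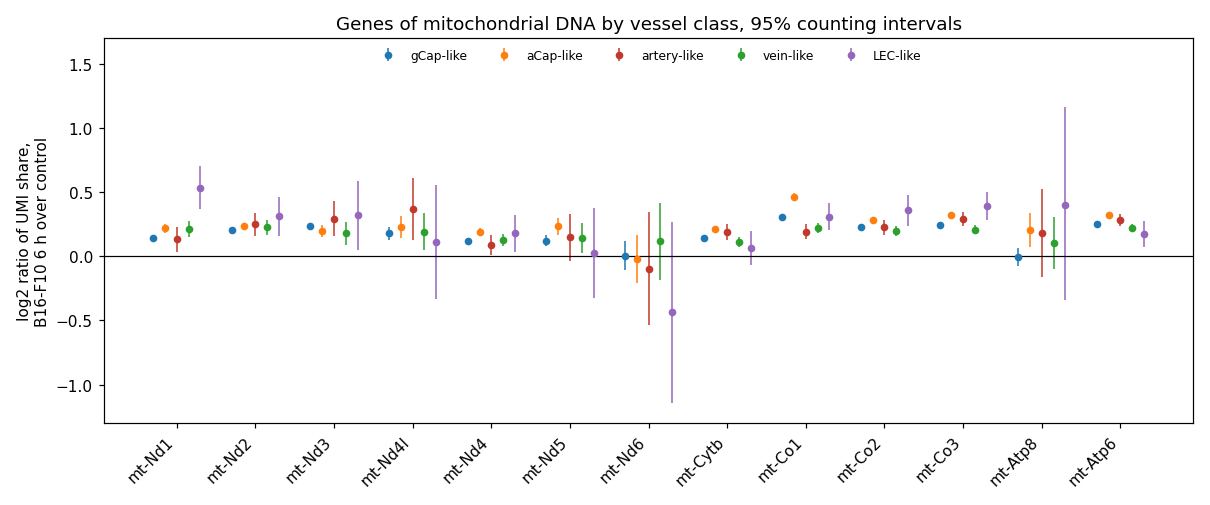
log2 ratio of the UMI share, B16-F10 6 h over control, of the 13 mitochondrial genes in 5 vessel classes, with 95% counting intervals. Most points lie between 0 and 0.5, mt-Co1 is at 0.30 in gCap-like and 0.46 in aCap-like cells, and mt-Nd6 and mt-Atp8 lie near 0 in gCap-like cells.

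In aCap-like cells 46 of 76 measured nuclear genes were higher and 0 lower, against 17.9% and 18.1% of all genes, with a median log2 ratio of 0.34 against 0.01. Without the low-UMI cluster, which held 511 control and 67 B16-F10 cells, 1 of 76 was higher, Atp5e at 0.40, and 0 lower, against 10.9% and 11.3% of all genes, with a median of 0.13 against 0.00. Within the other aCap-like clusters, taken one at a time, 26 of 76 were higher and 0 lower (9.47% and 11.3% of all genes), and 23 and 0 (13.2% and 16.4%). In the whole class Atp5g1 had 125 and 175 CPM (0.48), Ndufa8 77.7 and 108 CPM (0.47) and Atp5e 152 and 236 CPM (0.63, 0.55 to 0.72), while Ndufs1 had 49.5 and 41.5 CPM (−0.26, −0.43 to −0.08). Ndufa4l2 was at 5 and 25 UMIs.

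In artery-like cells 42 of 76 nuclear genes were higher and 0 lower, against 13.3% and 11.9% of all genes, with a median of 0.38 against 0.02. This class was a single cluster, in which 24.5% of control and 11.8% of B16-F10 cells had under 14 nuclear UMIs of 2000. Ndufa8 had 53.5 and 102 CPM from 77 and 132 UMIs (0.94, 0.52 to 1.36), Atp5g1 110 and 168 CPM (0.61, 0.31 to 0.91) and Cox5a 121 and 183 CPM (0.60, 0.31 to 0.89). All 3 were also counted as higher in gCap-like cells, and the intervals were wider here.

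In vein-like cells 5 of 76 nuclear genes were higher and 0 lower, against 8.76% and 11.1% of all genes, with a median of 0.12 against −0.03. Uqcrq had 170 and 233 CPM (0.46, 0.29 to 0.62) and Atp5g1 138 and 177 CPM (0.36, 0.18 to 0.55), while Ndufa6 had 234 and 204 CPM (−0.20, −0.35 to −0.04). In LEC-like cells 2 of 75 were higher and 4 lower, against 9.13% and 9.05%, with a median of 0.04 against −0.01. Among these, Cox5a had 56 and 85 UMIs (0.56, 0.06 to 1.08). The lower genes of LEC-like cells included Ndufa4, with 85 and 57 UMIs (−0.62, −1.13 to −0.12), Cox8a, with 190 and 152 UMIs (−0.36, −0.68 to −0.05), and Ndufa6, with 103 and 75 UMIs (−0.50, −0.95 to −0.05). Each of these 3 was higher in aCap-like or artery-like cells by at least 0.32 on the log2 scale, and the difference between classes was not tested. Without the low-UMI cluster the aCap-like ratios of Cox8a and Ndufa4 were 0.16 and 0.18.

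Vessel types also differed in the chain in control lungs. In the control library the nuclear sum of aCap-like cells stood at a log2 ratio of −0.20 to gCap-like cells, of artery-like cells at −0.26, of vein-like cells at 0.24 and of LEC-like cells at 0.09. The mitochondrial sums stood at −0.33, 0.07, 0.19 and −0.30. With the cells as kept, vein-like cells were thus above gCap-like cells for both genomes and aCap-like cells below for both, while artery-like and LEC-like cells were above for one genome only. Without the low-UMI clusters the aCap-like values were −0.10 and −0.46, and with cells of 500 genes or more, clustered anew, the nuclear one turned to 0.060. In the B16-F10 library the nuclear ratios were −0.07, −0.08, 0.12 and −0.10 and the mitochondrial ratios −0.26, 0.08, 0.16 and −0.24. The nuclear ratios of artery-like and vein-like cells were closer to 0 than in control, while that of aCap-like cells without the low-UMI clusters was −0.10 in B16-F10 too, with −0.30 for the mitochondrial genes.

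Of 77 measured nuclear genes in the control library, 0 were higher and 20 lower in aCap-like than in gCap-like cells (22.1% and 26.2% of all genes), 0 and 27 in artery-like (13.6% and 16.4%), 17 and 2 in vein-like (14.5% and 18.8%) and 10 and 4 in LEC-like cells (16% and 15.1%). Ndufa8 stood at 53.5 CPM in artery-like, 77.7 in aCap-like, 124 in gCap-like and 222 in vein-like cells, with intervals of the ratios to gCap-like cells all away from 0. Cox7a2l was also highest in vein-like cells but lowest in aCap-like cells, with 107 CPM in aCap-like, 187 in artery-like, 226 in gCap-like and 345 in vein-like cells. In B16-F10 the levels of Ndufa8 were 102, 108, 172 and 249 CPM in the same classes, and those of Cox7a2l 128, 186, 192 and 309 CPM, where artery-like and gCap-like cells were within counting error (−0.04, −0.23 to 0.15).

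Single genes of LEC-like cells, named partly for their large ratios, differed from gCap-like cells. The control counts for this class, given above, lay below the 16% and 15.1% of all genes. Ndufc2 stood at 436 CPM in control LEC-like and 200 CPM in gCap-like cells (log2 1.13, 0.92 to 1.33), and at 449 and 169 CPM in B16-F10 (1.41, 1.21 to 1.61). Ndufa4 stood at 182 and 368 CPM in control (−1.02, −1.35 to −0.71) and at 118 and 418 CPM in B16-F10 (−1.82, −2.22 to −1.44). Ndufa1, a small complex I subunit, was higher in control (0.73, 0.39 to 1.06) and not in B16-F10 (0.10, −0.30 to 0.46). Among the mitochondrial genes mt-Nd6 was higher (1.00, 0.52 to 1.45, 42 UMIs) and mt-Atp8 lower (−0.91, −1.50 to −0.37, 28 UMIs) than in gCap-like cells of the control library. Sdhb was higher in aCap-like (0.32, 0.24 to 0.40) and lower in vein-like cells (−0.33, −0.51 to −0.16), against the direction of the nuclear sums of both classes. Ndufa4l2 was at 5 UMIs in aCap-like and 0 in artery-like and LEC-like control cells, against 169 in gCap-like cells.

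The other genes of the pathway in gCap-like cells gave a mixed picture. Of the mitochondrial protein import genes 15 of 29 measured were higher and 0 lower, with a median log2 ratio of 0.33. Its extremes were Timm8a1 at 1.45 and Timm10 at 1.28, small carriers of the space between the membranes, and Tomm34 at −0.30. Of the mitochondrial ribosome 19 of 78 were higher and 0 lower (median 0.23), led by Mrpl17 with 42.7 and 98.7 CPM (1.21). Without the low-UMI cluster these counts were 12 and 1 of the import genes and 15 and 0 of the ribosomal genes. Of 81 cytosolic ribosomal genes 13 were higher and 0 lower (median 0.21), and of 15 glycolysis genes 7 and 0 (median 0.27), led by Pfkfb3, which makes the activator of phosphofructokinase, with 36.1 and 164 CPM (2.18). Over all genes 15.1% were higher and 20.4% lower in the whole class, and 14.2% and 18.7% without the low-UMI cluster.

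The other lists of the pathway stand against the same 15.1% higher and 20.4% lower over all genes. Of 49 assembly factors 8 were higher and 1 lower (median 0.07), with Ndufaf4 at 0.61 and Cmc2 at −0.37. Of 36 genes that copy, transcribe and translate mitochondrial DNA 7 were higher and 2 lower (median 0.05), with Fastkd2 at 0.68 and Polg2 at −0.54, while Tfam, which packages mitochondrial DNA, stood at −0.01 and the polymerase Polrmt at −0.08. Of 19 partners of the chain 4 were higher and 1 lower (median 0.16). Cytochrome c, Cycs, had 81.8 and 125 CPM (0.61), and the uncoupling protein gene Ucp2 had 729 and 466 CPM (−0.65). Of 25 citric acid cycle and pyruvate genes 1 was higher and 2 lower (median 0.08), and of 15 fatty acid oxidation genes 1 was higher and 2 lower (median −0.04), with Cpt1a, which admits fatty acids, at 120 and 80.1 CPM (−0.59). Of 30 genes of mitochondrial upkeep 4 were higher and 1 lower (median 0.08), with Chchd10 at 1.36 and Bnip3l at −0.40.

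Of 19 regulators of mitochondrial biogenesis 3 were higher and 4 lower (median −0.17), shares near the 15.1% and 20.4% of all genes. Myc, a growth factor-induced transcription factor, had 18 and 568 UMIs (4.85), Pprc1 1.44 and Hif1a 0.88. The coactivator Ppargc1a had 236 and 128 UMIs (−1.01), Sirt1 −0.61 and Gabpa −0.32, and Nrf1, Yy1 and Esrra stood at −0.06, −0.14 and −0.17. In the same cells all 8 genes of a short list of the study's reactive capillary markers were higher, from Osmr at 1.44 to Inhbb at 4.78, a list the study chose partly on these libraries. Of 11 genes known to respond to tissue dissociation 8 were higher and 2 lower, with Egr1 at 3.76 and Hspa1b at −1.28. The part of dissociation in the respiratory chain values was not tested.

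Gene length and free RNA moved with the comparison. Over the 12843 genes measured in gCap-like cells, the median log2 ratio was 0.08, 0.01, −0.07 and −0.19 from the shortest to the longest of 4 equal bins by gene span, and 53, 17, 7 and 1 of the 78 nuclear genes fell in these bins. Their median span was 7370 bases against 23121 for all genes. The median log2 ratio of the nuclear genes was 0.21. The bins were not matched for level, and the part of gene length in the result was not tested. Barcodes of 1 to 100 UMIs, taken as free RNA, had nuclear shares of 1.6% and 2.19% and mitochondrial shares of 3.91% and 6.03%. For an estimate, all UMIs of 13 epithelial and red cell marker genes in a class were taken as free RNA. Free RNA was estimated at 2.28% and 3.40% of gCap-like UMIs. This supplies nuclear shares of 0.0365 and 0.0744 percentage points and mitochondrial shares of 0.0892 and 0.205. In vein-like cells the estimate was 0.897% and 7.23%, where the red cell markers summed to 511 and 3504 CPM. After subtraction the gCap-like log2 ratios were 0.19 and 0.17.

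Markers of other cell types in gCap-like cells were also higher in B16-F10. The 8 melanoma markers summed to 26.2 and 52.8 CPM, with 4 of 8 at 0 in control and 0 of 8 in B16-F10. The 8 epithelial markers summed to 53.9 and 98.6 CPM, the 8 myeloid markers to 18.6 and 32.1 CPM, the 6 platelet markers to 23.4 and 25.1 CPM and the 5 red cell markers to 1323 and 1586 CPM. Melanoma-like cells, 77 in the B16-F10 library, were rich in respiratory chain RNA, with 4.77% nuclear and 7.14% mitochondrial UMIs. With every cell that carried a UMI of a platelet, mural, myeloid or pigment marker left out, 2555 control and 1409 B16-F10 gCap-like cells remained, and the log2 ratios were 0.22 for the nuclear and 0.22 for the mitochondrial genes.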

How the data were processed

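Single-cell RNA was measured in 1 control and 1 B16-F10 6 h library. The authors deposited raw UMI counts per gene and barcode for all barcodes, which the file headers attribute to Cell Ranger 7.2.0, on mm10. The submitters' processing notes also name Seurat 4.4.0. The counting of intronic reads is not given in the sources used here.

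The genes and lists were chosen with earlier results of these data known. Cells needed 1000 to 5000 genes and less than 20% of UMIs from mitochondrial genes, the study's limits. Scrublet in scanpy 1.11.5 removed 564 control and 554 B16-F10 cells as doublets (0.8% per 1000 cells). For clustering, each cell was scaled to 10000 UMIs, on a log scale. Respiratory chain genes, mitochondrial genes and the study's reactive and interferon markers were kept out of the 2952 variable genes. Cells were clustered with leidenalg 0.10.2 (30 components, 20 neighbours, resolution 0.8), giving 24 clusters. A marker counted at 1.5-fold over the mean of the other clusters and in 10% of cells, a class needed 3 markers and 50% of its list, and ECs needed 6 of 8 endothelial markers. Clusters that met an endothelial and another class were called mixed and left out. Clusters with a median under 0.6 of their library's UMIs were called low-UMI.

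Sums of UMIs over the cells of a class were given as shares or counts per 1000000, with exact Poisson, conditional binomial or Clopper-Pearson 95% intervals (scipy 1.17.1, numpy 2.4.6, pandas 2.3.3), which cover counting error only. The ratio code was tested on simulated data. No pseudocount and no significance test were used. Named genes were all mitochondrial members, the 2 of highest level per complex, the 6 highest and 6 lowest ratios in gCap-like cells, the 4 highest and 4 lowest against gCap-like cells, isoform sets, genes in opposite directions in 2 classes, and the extremes of each pathway list, the last also with regulators. Other genes named were chosen after their values were seen. Coordinates come from GENCODE M21 (GRCm38, the build of mm10), where 32235 of 32285 gene IDs were found. Upstream sequences come from RefSeq (GRCm38.p6), which matched 66 of 81 nuclear genes by symbol and 2 by other names. Alternatives changed the cell limits, doublet removal, clustering, denominator, scaling, depth, free RNA, weights and thresholds.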

Additional observations from a re-analysis of the deposited data

Results flagged for a closer look

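Nuclear genes with opposite directions in different vessel types were Cox8a, with a log2 ratio of 0.39 in aCap-like and −0.36 in LEC-like cells, Ndufa4, with 0.37 in aCap-like cells, 0.39 in artery-like cells and −0.62 in LEC-like cells, and Ndufa6, with 0.44 in artery-like and −0.50 in LEC-like cells. Each ratio passed 0.32 beyond counting error with the cells as kept. Without the low-UMI cluster the aCap-like ratios of Cox8a and Ndufa4 were under 0.32, at 0.16 (0.10 to 0.23) and 0.18 (0.11 to 0.24). The difference between classes was not tested, and the LEC-like values rest on 57 control and 51 B16-F10 cells.

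Barcodes outside the cells kept, some of which entered only the free RNA estimate or the alternatives, also carried respiratory chain RNA. The nuclear share was larger in the B16-F10 library than in the control library in each of 5 sets. Barcodes of 1 to 100 UMIs had nuclear shares of 1.6% and 2.19% and mitochondrial shares of 3.91% and 6.03%. Those of over 100 UMIs and under 300 genes had nuclear shares of 1.1% and 1.67%, while their mitochondrial share was lower, 10.7% and 6.09%. Barcodes of 300 to under 1000 genes had nuclear shares of 1.36% and 1.82% and mitochondrial shares of 5.10% and 6.26%. Cells with 20% or more mitochondrial UMIs, 6 in control and 20 in B16-F10, had nuclear shares of 0.616% and 2.62% and mitochondrial shares of 45.2% and 29.1%. Cells of more than 5000 genes had nuclear shares of 1.22% and 1.44% and mitochondrial shares of 2.38% and 2.94%.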

How the results depend on the processing

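No paired analysis was possible because 1 library stands for either group. Of 196 recomputed values of the 14 summary results under 19 alternatives, 112 moved by less than their counting interval (counts by less than 1.5 times), 83 moved further and 1 reversed. Of 630 values of 45 other results, 508 stayed within theirs and 122 moved. Leaving out low-UMI clusters, adding the unnamed gCap-marked cluster, taking free RNA from barcodes of over 100 UMIs and leaving out cells marked by another type were chosen after seeing the data. The cause of each move was not tested. The only reversal was the nuclear ratio of aCap-like to gCap-like control cells, −0.20 as reported and 0.060 with cells of 500 genes or more. That alternative had no upper gene limit and was clustered anew, with 943 control aCap-like cells against 1451, so the class itself differed.

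The gCap-like nuclear log2 ratio was 0.23 without doublet removal, 0.19 at resolution 1.6, 0.26 centred on the median of all genes, 0.25 thinned, 0.19 after free RNA was subtracted, 0.25 as a mean over cells, 0.14 without low-UMI clusters, 0.23 with the unnamed cluster and 0.22 without marked cells. The gCap-like mitochondrial ratio was 0.22 under 10% mitochondrial UMIs, with members kept in clustering, with mitochondrial UMIs out of the denominator or without marked cells, 0.18 with no mitochondrial limit, 0.20 with 500 genes, 0.25 without doublet removal, 0.26 centred or with free RNA from larger barcodes, 0.21 thinned or per cell, 0.17 after free RNA, 0.19 without low-UMI clusters and 0.24 with the unnamed cluster. The 14 nuclear genes counted as higher became 24 centred (17.7% of all genes), 22 thinned (15.1%), 58 at 1.1-fold (24.9% of all genes), 1 at 1.5-fold (7.85%) and 5 without low-UMI clusters, and the 0 counted as lower became 2 at 1.1-fold (32.2%).

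The aCap-like nuclear ratio was 0.14 with 500 genes, 0.52 thinned, 0.51 per cell, 0.15 without low-UMI clusters and 0.37 without marked cells. The mitochondrial ratio was 0.27 with no limit, 0.36 with 500 genes, 0.30 without doublet removal, 0.19 thinned or per cell, 0.35 without low-UMI clusters and 0.41 with free RNA from larger barcodes. Artery-like nuclear ratios were 0.34 with 500 genes or at resolution 1.6, and mitochondrial ratios 0.25 under 10% or with 500 genes, 0.15 with no limit, 0.26 at resolution 1.6, 0.20 after free RNA and 0.14 per cell. Vein-like nuclear ratios were 0.13 centred, 0.047 after free RNA and 0.12 without marked cells, and mitochondrial ratios 0.21 under 10%, 0.18 with 500 genes, 0.16 without doublet removal or with free RNA from larger barcodes, 0.22 centred, 0.065 after free RNA, 0.23 per cell or without marked cells. LEC-like nuclear ratios were 0.12 without doublet removal, and mitochondrial ratios 0.20 with 500 genes, 0.38 thinned, 0.23 after free RNA and 0.43 per cell. For aCap-like against gCap-like control cells the other nuclear ratios were −0.14 without doublet removal, −0.24 at resolution 1.6, −0.18 centred, −0.33 thinned or per cell, −0.22 after free RNA and −0.10 without low-UMI clusters. The mitochondrial ratios were −0.32 under 10%, −0.37 with no limit or after free RNA, −0.45 with 500 genes, −0.26 without doublet removal, −0.31 with members kept or centred, −0.16 thinned or per cell, −0.46 without low-UMI clusters and −0.41 with free RNA from larger barcodes. Depth limited the LEC-like and artery-like gene values, where genes held few UMIs.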

Other observations

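Cells outside the vessel classes gave these shares of respiratory chain UMIs. The melanoma-like cells, 77 of which were in the B16-F10 library, had a ratio of mitochondrial to nuclear UMIs of 1.5. A cluster with endothelial and platelet markers (173 control and 133 B16-F10 cells) had nuclear shares of 1.31% and 1.45% and mitochondrial shares of 2.58% and 2.68%. A cluster with endothelial and epithelial markers (61 and 115 cells) had nuclear shares of 1.39% and 1.54%. The cluster with mural markers (19 and 26 cells) had 1.28% and 1.39% nuclear and 2.16% and 2.70% mitochondrial.

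Barcodes with endothelial and red cell markers (289 and 759) had nuclear shares of 1.98% and 2.20% and mitochondrial shares of 4.52% and 5.07%. Their median was 2730 UMIs. Malat1 took 0.384% and 0.116% of their UMIs, against 3.76% and 3.45% in all named ECs. Myeloid-like cells (5 and 35) had nuclear shares of 1.63% and 1.6% and mitochondrial shares of 1.54% and 2.98%, and lymphoid-like cells (8 and 29) 1.52% and 1.35% nuclear and 2.51% and 2.86% mitochondrial. Neutrophil-like cells (3 and 19) had the lowest mitochondrial shares of these clusters, 0.204% and 0.225%, with nuclear shares of 0.655% and 0.629%.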
